A study of Mus musculus with 12 samples.

Results

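The RNA levels of *Cybb*, *Cyba*, *Ncf1*, *Ncf4*, *Rac2* and *Nos2* were followed in sorted mouse microglia after stroke and after deletion of the histone deacetylase HDAC3. These 6 genes, taken by symbol from the 55401 gene identifiers of the deposited count tables, encode 5 parts of the phagocyte NADPH oxidase and the inducible nitric oxide synthase. The 12 libraries formed 4 groups of 3 biological replicates. WT-Sham and WT-tFCI mice carried 2 floxed *Hdac3* alleles and no Cre. The miKO-Sham and miKO-tFCI mice carried the same floxed alleles and CreER in 1 *Cx3cr1* allele, so that they also had 1 intact *Cx3cr1* copy fewer than the controls. All mice were male and received tamoxifen as young adults, which activates CreER in cells that express *Cx3cr1*, and were operated at least a month later. Transient focal cerebral ischemia (tFCI) was an occlusion of the middle cerebral artery for 60 min, and Sham mice had the surgery without the occlusion. CD45int CD11b+ cells were sorted after the surgery, and each library pooled the cells of several hemispheres. The labels gave replicate 1 of each group to batch 1 and replicates 2 and 3 to batch 2.

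The phagocyte oxidase moves electrons from NADPH across a membrane to oxygen and so produces superoxide. Its catalytic core is a membrane pair of gp91phox, encoded by *Cybb*, and p22phox, encoded by *Cyba*, which is inactive until cytosolic subunits dock on it. Among these are the organizer p47phox from *Ncf1*, the modulator p40phox from *Ncf4* and a Rac GTPase, of which *Rac2* encodes the form typical of blood cells. In the brain, microglia are the main resident source of this enzyme. The synthase encoded by *Nos2* makes nitric oxide from arginine, is scarce in resting cells, and is known to be induced by cytokines and microbial products.

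On GRCm38, *Cybb* (ENSMUSG00000015340.10) lies on the minus strand of chromosome X at chrX:9435252-9487771. *Cyba* (ENSMUSG00000006519.11) occupies chr8:122424776-122432930 and *Ncf1* (ENSMUSG00000015950.13) chr5:134220053-134229625, both on the minus strand. *Ncf4* (ENSMUSG00000071715.12) at chr15:78244801-78262580 on the plus strand and *Rac2* (ENSMUSG00000033220.7) at chr15:78559167-78572783 on the minus strand are 296586 bases apart. *Nos2* (ENSMUSG00000020826.9) is on the plus strand at chr11:78920787-78960254. Of these 6 genes, *Ncf1* alone shared exon bases with another annotated gene, 408 of its 3663 exon bases lying opposite *Gtf2ird2*. The library kit does not mark strand, so reads of this stretch cannot be divided between these genes. The counts of *Gtf2ird2* came to 13442 over all libraries, against 47697 for *Ncf1*.

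RefSeq promoter windows were at hand for *Cybb*, *Cyba* and *Ncf1* (GRCm38.p6). No window was at hand for *Ncf4*, *Rac2* and *Nos2*, so the 3 shown were not picked by their RNA levels. Each line gives the 250 bases before the RefSeq start on the minus strand, with 3 motifs, read on both strands, in capitals. These are the CCAAT box, the GC box core GGGCGG and the STAT motif TTCNNNGAA. The *Cybb* window is chrX:9469325-9469574, inside the annotated *Cybb* gene, the *Cyba* window is chr8:122432941-122433190, overlapped by the gene model Gm20388 on the other strand, and the *Ncf1* window is chr5:134229626-134229875, in no annotated gene. None of the 3 windows overlaps an annotated exon.
Cybb: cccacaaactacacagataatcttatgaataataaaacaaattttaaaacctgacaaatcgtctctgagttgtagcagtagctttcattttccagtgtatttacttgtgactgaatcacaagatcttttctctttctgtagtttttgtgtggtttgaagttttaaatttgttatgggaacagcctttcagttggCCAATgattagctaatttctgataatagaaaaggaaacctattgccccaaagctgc
Cyba: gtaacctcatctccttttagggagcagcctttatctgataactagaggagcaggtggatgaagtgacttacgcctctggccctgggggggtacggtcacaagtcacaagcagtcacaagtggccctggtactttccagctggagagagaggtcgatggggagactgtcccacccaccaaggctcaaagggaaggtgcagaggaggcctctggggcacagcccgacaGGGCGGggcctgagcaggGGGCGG
Ncf1: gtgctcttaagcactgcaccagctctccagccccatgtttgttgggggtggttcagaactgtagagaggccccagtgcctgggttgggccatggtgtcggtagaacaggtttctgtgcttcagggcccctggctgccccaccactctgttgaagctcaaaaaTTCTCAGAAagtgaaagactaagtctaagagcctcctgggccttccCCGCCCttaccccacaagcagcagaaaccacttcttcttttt

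The *Cybb* window holds a CCAAT box that runs from 56 to 52 bases before the start. The *Cyba* window ends in GGGCGG, the core of a GC box, and holds another one 24 to 19 bases before the start. In *Ncf1*, TTCTCAGAA, a match to the TTCNNNGAA of STAT factors, lies 88 to 80 bases upstream and a GC box on the other strand 42 to 37 bases upstream. Among 32851 mouse windows of the same length, CCAAT occurred in 33.8%, GGGCGG in 32.7% and TTCNNNGAA in 7.02%. Also searched on both strands were GAGGAA, a form of the PU.1 motif (23.3% of windows), an NF-kB consensus (3.86%) and TATAAA (12.4%). None of these exact patterns had a match in the 3 windows. Other forms of these motifs, such as shorter sequences of PU.1 and other ETS factors, were not searched, so their presence was not assessed. These letters are a description of the sequence and not binding sites.

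Between 7697864 and 9452222 reads per library were counted on genes, and 16451 genes had enough counts to be tested. *Hdac3*, the deleted gene, stood at 34.9, 43.9 and 46.3 CPM (counts scaled to a common library total with TMM) in WT-Sham and at 25.8, 24.9 and 20.8 in miKO-Sham. It stood at 53.8, 52.7 and 43.8 CPM in WT-tFCI and at 35.8, 27.1 and 28.9 in miKO-tFCI. It was lower in miKO by 0.81 on the log2 scale in Sham (edgeR adjusted p = 0.00281) and by 0.71 after tFCI (edgeR adjusted p = 0.0127), and the latter call was lost without WT-tFCI replicate 2 (-0.65, edgeR adjusted p = 0.0705). All 10 microglial markers had counts in every library. WT-Sham replicate 1 stood apart in neutrophil RNA, with 861 CPM summed over 11 neutrophil markers against 78.8 and 51.3 CPM in the other WT-Sham libraries. The miKO-Sham replicates 1 and 2 were the closest of the 12 pairs of libraries within groups (chi-square per degree of freedom 2.85, the other such pairs 3.75 to 85.9). The labels put them in different batches, whereas miKO-Sham replicates 2 and 3, of the same batch, stood at 42.8. In each of the other groups, replicates 2 and 3 were the closest pair (5.05 in WT-Sham, 3.75 in WT-tFCI and 13.6 in miKO-tFCI). The batch term and the within-batch values rest on these labels, which were not tested. Replicates 1 and 2 of miKO-Sham differed by more than sampling noise and were kept as separate libraries.

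**Figure D1:**
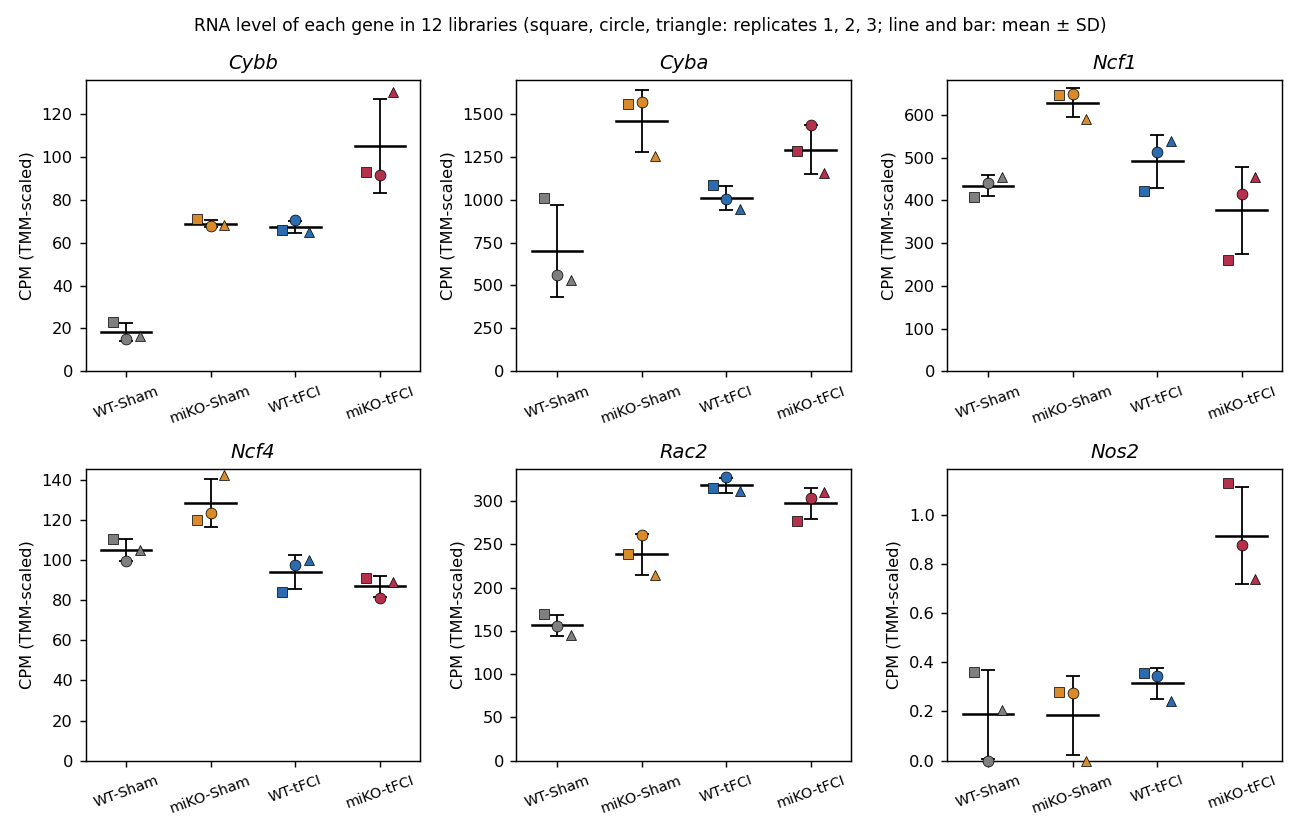
CPM of the 6 genes in each of the 12 libraries, by group (squares replicate 1, circles replicate 2, triangles replicate 3), with the mean ± SD of 3 libraries and axes from 0. *Cybb* is lowest in WT-Sham (15.0 to 22.9 CPM) and highest in miKO-tFCI (91.8 to 130.4 CPM), whereas *Nos2* stays at or below 1.13 CPM everywhere.

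Genes were called, with edgeR over all 16451 genes tested, at an adjusted p under 0.05 with an absolute log2 fold change above 0.58. *Nos2* had too few counts to be tested, so 5 of the 6 genes could be called. In WT-tFCI vs. WT-Sham, *Cybb* and *Rac2* were called higher, 2 of 5, against 32.6% of all genes tested (20.9% higher and 11.7% lower). In miKO-Sham vs. WT-Sham, *Cybb*, *Cyba* and *Rac2* were called higher, 3 of 5, against 15.4% of all genes (8.58% higher and 6.80% lower). In miKO-tFCI vs. WT-tFCI, only *Cybb* was called, higher, against 8.79% of all genes (4.08% higher and 4.71% lower). In miKO-tFCI vs. miKO-Sham, *Cybb* was called higher and *Ncf1* lower, against 35.8% of all genes (21.9% higher and 13.9% lower). The interaction of genotype and surgery, which asks whether tFCI changed a gene differently in miKO and WT, called *Cybb*, *Ncf1* and *Rac2*, all lower, against 3.82% of all genes (2.57% lower). The comparisons share groups, so these counts do not stand independently of one another.

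The median log2 fold change of the 5 genes tested was 0.57 in WT-tFCI vs. WT-Sham, 0.61 in miKO-Sham vs. WT-Sham, -0.10 in miKO-tFCI vs. WT-tFCI, -0.17 in miKO-tFCI vs. miKO-Sham and -0.73 in the interaction. Over all genes tested the corresponding medians were 0.02, 0.04, 0.04, 0.03 and -0.02, and the medians of other lists below are to be read beside these. Likewise, counts of calls in the lists and markers below are to be read beside the shares of all genes called in each comparison, given above. The subunit genes thus did not share 1 profile over the 4 groups, and the description below takes them by their place in the enzyme. In bulk RNA, fewer cells of a type and less RNA per cell cannot be told apart.

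**Figure D2:**
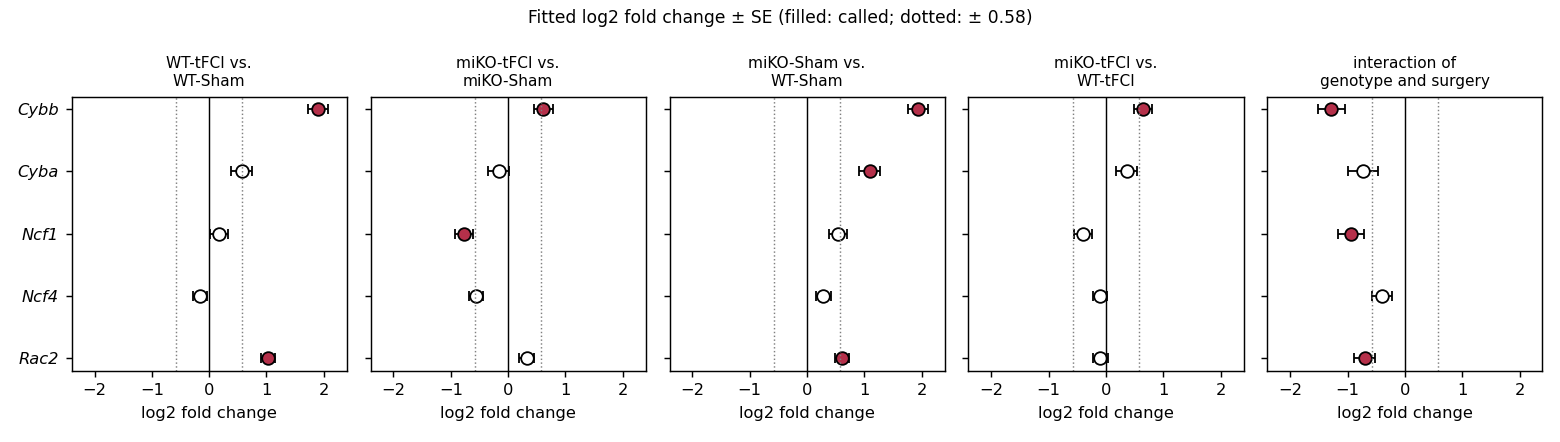
Fitted log2 fold change ± SE of the 5 genes tested in each of the 4 comparisons and in the interaction (x axes, same range), with called values filled and the limits of ± 0.58 dotted. *Cybb* is called in all 5 panels, *Ncf4* in none.

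*Cybb*, the catalytic subunit, had the largest fold changes of the set in the comparisons with WT-Sham. It stood at 22.9, 15.0 and 16.6 CPM in WT-Sham, at 71.0, 67.7 and 68.3 in miKO-Sham, at 66.1, 70.6 and 65.3 in WT-tFCI, and at 93.2, 91.8 and 130.4 in miKO-tFCI. All libraries of miKO-Sham and of WT-tFCI thus lay far above WT-Sham and overlapped with each other, and those of miKO-tFCI lay above all the others. The rise was 3.73-fold after tFCI in WT (log2 fold change 1.90 ± 0.18 SE, edgeR adjusted p = 1.38e-06) and 3.81-fold with the deletion in Sham (1.93 ± 0.18, edgeR adjusted p = 3.01e-06), in 3 of 3 libraries each. Both calls held under every alternative tried, with log2 fold changes of 1.73 to 2.11 and of 1.79 to 2.15.

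After tFCI, the step from WT to miKO was smaller, 0.65 ± 0.16 on the log2 scale (edgeR adjusted p = 0.0225), with no overlap between the groups. This call was fragile. It was lost without the batch term (0.64, edgeR adjusted p = 0.051) and on leaving out WT-tFCI replicate 1 (0.56, edgeR adjusted p = 0.103), replicate 2 (0.70, 0.0694) or replicate 3 (0.63, 0.105). Without miKO-tFCI replicate 3, which held the highest *Cybb* level, the difference was 0.43 (edgeR adjusted p = 0.131). From miKO-Sham to miKO-tFCI, *Cybb* rose by 0.61 ± 0.17 (edgeR adjusted p = 0.00803), close to the fold limit, and went below that limit without any 1 of the WT-Sham libraries (0.57 each) or without WT-tFCI replicate 2 or 3 (0.58 each). Without miKO-tFCI replicate 3 that rise was 0.38 (edgeR adjusted p = 0.0712). Within batches 1 and 2, *Cybb* differed by 1.52 and 2.09 in WT-tFCI vs. WT-Sham, by 1.62 and 2.09 in miKO-Sham vs. WT-Sham, and by 0.50 and 0.69 in miKO-tFCI vs. WT-tFCI (differences of mean log2 CPM).

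*Cyba*, which encodes the partner that stabilizes gp91phox in the membrane, was per kb of exon by far the most abundant RNA of the set. Its CPM was 1008, 563 and 532 in WT-Sham, 1558, 1568 and 1252 in miKO-Sham, 1083, 1003 and 946 in WT-tFCI, and 1282, 1437 and 1154 in miKO-tFCI. The single high WT-Sham value overlapped with WT-tFCI and belonged to replicate 1. That library held the most neutrophil RNA of its group and was also the only one of its group in batch 1. The part of either in the high value was not tested, and within the group they cannot be told apart. The miKO-Sham libraries lay above all WT-Sham libraries, a rise of 2.13-fold (log2 fold change 1.09 ± 0.19, edgeR adjusted p = 0.000763) that was called under every alternative tried, with log2 fold changes of 0.94 to 1.37. Within batches 1 and 2 it differed by 0.63 and 1.36. From WT-Sham to WT-tFCI the log2 fold change of 0.57 ± 0.19 (edgeR adjusted p = 0.0257) lay just below the fold limit. It passed that limit without WT-Sham replicate 1 (0.82, edgeR adjusted p = 0.002) or without WT-tFCI replicate 1 (0.64, edgeR adjusted p = 0.0411). The libraries of batch 1 differed by 0.10 and those of batch 2 by 0.83. Between the tFCI groups, all 3 miKO libraries were higher, yet the difference of 0.36 ± 0.18 was not called (edgeR adjusted p = 0.232).

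*Ncf1*, whose product carries the other cytosolic subunits to the membrane, took another course. It stood at 407, 441 and 454 CPM in WT-Sham, 646, 650.0 and 589 in miKO-Sham, 421, 514 and 540 in WT-tFCI, and 261, 414 and 454 in miKO-tFCI. The miKO-Sham libraries were thus above those of every other group. Against WT-Sham the log2 fold change was 0.54 ± 0.16 (edgeR adjusted p = 0.0245), below the fold limit, and it passed that limit without WT-Sham replicate 1 (0.60) or miKO-Sham replicate 3 (0.64). From miKO-Sham to miKO-tFCI *Ncf1* fell by 0.77 on the log2 scale (SE 0.16, edgeR adjusted p = 0.0012), in 3 of 3 libraries. Replicate 1 of miKO-tFCI was the lowest, and the within-batch differences were -1.31 in batch 1 and -0.51 in batch 2. Fitted on batch 2 alone, the change was -0.54 (edgeR adjusted p = 0.00701), below the fold limit, so that the call was lost. No call was made, and the groups overlapped, in WT-tFCI vs. WT-Sham (0.17 ± 0.15, edgeR adjusted p = 0.402) and in miKO-tFCI vs. WT-tFCI (-0.40 ± 0.16, edgeR adjusted p = 0.119).

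*Ncf4*, encoding p40phox, which binds the lipid of phagosome membranes, varied least. Its CPM was 110.9, 99.8 and 105 in WT-Sham, 119.9, 123 and 142 in miKO-Sham, 84.3, 97.6 and 100.1 in WT-tFCI, and 91.0, 81.1 and 89.0 in miKO-tFCI. As for *Ncf1*, miKO-Sham held the 3 highest libraries. No call was made, the nearest being miKO-tFCI vs. miKO-Sham with -0.56 ± 0.13 (edgeR adjusted p = 0.00254), just inside the fold limit, which 15 of 24 alternatives put past it. Those included leaving out any 1 library other than miKO-Sham replicate 3 and miKO-tFCI replicate 2, with values from -0.59 to -0.67.

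The 3 partners of these subunits described here, *Rac1*, *Cybc1* and *Rap1a*, were all tested. *Cybc1*, whose product is a chaperone of the gp91phox and p22phox pair, stood at 157, 163 and 201 CPM in WT-Sham, 141, 151 and 149 in miKO-Sham, 91.9, 91.8 and 89.6 in WT-tFCI, and 63.7, 83.3 and 90.6 in miKO-tFCI. Every tFCI library was thus below every Sham library. It was called lower after tFCI both in WT (-0.93 ± 0.13, edgeR adjusted p = 8.77e-05) and in miKO (-0.90 ± 0.13, edgeR adjusted p = 0.00011), opposite in direction to *Cybb*. By edgeR, 0 of the 3 were called in either comparison of miKO with WT, the nearest being *Rac1* in Sham (0.49 ± 0.14, edgeR adjusted p = 0.0280), below the fold limit. The partners' median log2 fold change was -0.08 in WT-tFCI vs. WT-Sham, 0.38 in miKO-Sham vs. WT-Sham, 0.29 in miKO-tFCI vs. WT-tFCI and -0.23 in miKO-tFCI vs. miKO-Sham. *Rac1* shares 2309 of its 4496 exon bases with *Daglb* on the other strand, so its level is uncertain.

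*Rac2* stood at 169, 155 and 145 CPM in WT-Sham, 239, 261 and 214 in miKO-Sham, 316, 328 and 312 in WT-tFCI, and 278, 304 and 311 in miKO-tFCI. The groups thus formed steps without overlap, from WT-Sham through miKO-Sham to miKO-tFCI and then WT-tFCI, the last step being small. *Rac2* rose 2.04-fold after tFCI in WT (log2 fold change 1.03 ± 0.13, edgeR adjusted p = 2.15e-05) under every alternative tried (0.93 to 1.10). With the deletion in Sham it rose by 0.61 ± 0.13 (edgeR adjusted p = 0.0034), which lay below the fold limit without WT-Sham replicate 3 (0.53) or miKO-Sham replicate 2 (0.54). The 3 miKO-tFCI libraries lay just under the 3 WT-tFCI libraries, a difference of -0.10 ± 0.13 that was not called (edgeR adjusted p = 0.670). From miKO-Sham to miKO-tFCI the 0.32 ± 0.13 was not called either (edgeR adjusted p = 0.0508), although all 3 libraries were higher. Within batches 1 and 2, *Rac2* differed by 0.90 and 1.09 in WT-tFCI vs. WT-Sham and by 0.50 and 0.66 in miKO-Sham vs. WT-Sham.

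To compare the genes with each other, CPM was divided by exon length, taken as all annotated exon bases of the gene. The transcripts present may be shorter, so the order of the genes and the ratios between them depend on this length. *Cyba* RNA was then the most abundant of the 8 oxidase and partner genes in every group, from 675 ± 256 CPM per kb in WT-Sham to 1404 ± 173 in miKO-Sham (SD, n = 3). *Cybb*, its obligate partner, was the least abundant in every group, at 3.13 ± 0.722 CPM per kb in WT-Sham, 11.9 ± 0.298 in miKO-Sham, 11.6 ± 0.492 in WT-tFCI and 18.1 ± 3.77 in miKO-tFCI. The ratio of *Cyba* to *Cybb* RNA per kb was 212 ± 33.4 in WT-Sham, 118 ± 14.0 in miKO-Sham, 84.0 ± 6.62 in WT-tFCI and 71.3 ± 19.6 in miKO-tFCI. The WT-Sham libraries (179 to 246) did not overlap with those of any other group, while the tFCI groups overlapped with each other. Of the Rac genes, *Rac2* had 0.349 ± 0.0413 of the level of *Rac1* per kb in WT-Sham, 0.378 ± 0.0253 in miKO-Sham, 0.751 ± 0.0502 in WT-tFCI and 0.560 ± 0.0744 in miKO-tFCI, with the reservation on *Rac1* given above. Some neighbours in the order did not differ beyond their spread, such as *Ncf4* (52.1 ± 2.76) and *Rac2* (50.4 ± 3.89) in WT-Sham, *Rac1* (137 ± 6.22) and *Ncf1* (134 ± 17.01) in WT-tFCI, and *Cybc1* (18.8 ± 3.31) and *Cybb* in miKO-tFCI.

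**Figure D3:**
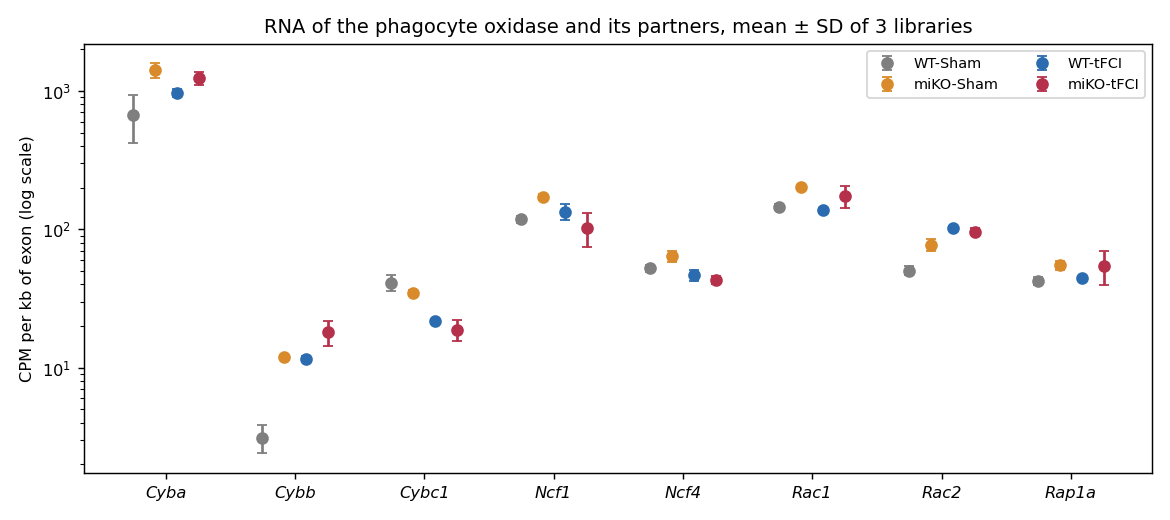
Mean CPM per kb of exon ± SD of 3 libraries on a log axis for the 8 oxidase and partner genes, by group. *Cyba* lies at the top in every group (675 to 1404 CPM per kb) and *Cybb* at the bottom (3.13 to 18.1 CPM per kb), though *Cybb* and *Cybc1* are within their spread in miKO-tFCI.

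*Nos2* was close to the detection limit. Its raw counts were 3, 0 and 2 in WT-Sham, 2, 2 and 0 in miKO-Sham, 3, 3 and 2 in WT-tFCI, and 11, 7 and 6 in miKO-tFCI, where 3 counts correspond to 0.307 to 0.416 CPM depending on the library. Only the miKO-tFCI libraries were clearly above that level, at 1.13, 0.877 and 0.740 CPM, and all 3 lay above every other library. Summed over libraries, miKO-tFCI held 24 counts and WT-tFCI 8, a ratio of 2.94 with an exact 95% binomial interval of 1.28 to 7.57 that covers counting error only. In miKO-tFCI over miKO-Sham the ratio was 5.17 (1.78 to 20.5). For WT-tFCI over WT-Sham it was 1.71 (0.494 to 6.65), so that a rise with tFCI in WT was not detectable at this depth. In an edgeR fit without a filter on low counts, over 34185 genes, the log2 fold change in miKO-tFCI vs. WT-tFCI was 1.46 ± 1.16 (edgeR adjusted p = 0.718), and in miKO-tFCI vs. miKO-Sham 2.25 ± 1.26 (edgeR adjusted p = 0.237). *Nos2* was thus not called in any comparison.

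Of the other synthases, the neuronal *Nos1* had at most 5 counts in a library and was not tested. The endothelial *Nos3* had 12, 2 and 3 counts in WT-Sham, 20, 7 and 10 in miKO-Sham, 88, 33 and 30 in WT-tFCI, and 168, 62 and 41 in miKO-tFCI. It was called higher after tFCI in WT (3.26 ± 0.40, edgeR adjusted p = 1.89e-05) and in miKO (2.56 ± 0.36, edgeR adjusted p = 6.08e-05). Replicate 1 was highest in each group, as it was for the summed level of 6 endothelial markers, which was 15.6 to 21.5 CPM in WT-Sham, 8.44 to 14.6 in miKO-Sham, 49.6 to 151 in WT-tFCI and 99.0 to 257 in miKO-tFCI. The part of endothelial RNA in the *Nos3* difference was not tested. In miKO-Sham vs. WT-Sham, *Nos3* was called higher (1.46 ± 0.44, edgeR adjusted p = 0.030), a call lost without WT-Sham replicate 2 (1.25) or replicate 3 (1.35), and without miKO-Sham replicate 1 (1.60) or replicate 3 (1.32). Exon bases of *Nos3* overlap 2 genes on the other strand.

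The list of 13 genes for the synthase cofactor tetrahydrobiopterin and for arginine supply had 12 genes tested. After tFCI in WT, 5 were called higher and 0 lower (median log2 fold change 0.63). *Slc7a2*, an arginine transporter, went from 0.960, 0.224 and 0.102 CPM in WT-Sham and 0, 0.415 and 0.128 in miKO-Sham to 15.5, 4.84 and 6.20 in WT-tFCI and to 42.7, 16.3 and 13.7 in miKO-tFCI. *Arg1*, whose arginase competes with nitric oxide synthase for arginine, went from 1.32, 3.13 and 1.64 CPM in WT-Sham and 1.80, 3.46 and 4.86 in miKO-Sham to 47.4, 16 and 17.6 in WT-tFCI and to 232, 121 and 130.2 in miKO-tFCI. Every tFCI library lay above every Sham library for both genes, and miKO-tFCI lay above WT-tFCI without overlap for *Arg1* but with overlap for *Slc7a2*.

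Between the tFCI groups these were the 2 genes of the list that were called, *Arg1* by 2.63 ± 0.33 (edgeR adjusted p = 0.000206) and *Slc7a2* by 1.45 ± 0.33 (edgeR adjusted p = 0.0135), while the median of the list was -0.0033. The *Arg1* call held under every alternative tried. That of *Slc7a2* was lost without WT-tFCI replicate 1 (1.43, edgeR adjusted p = 0.0691), replicate 2 (1.36) or replicate 3 (1.54), without miKO-tFCI replicate 1 (1.37) and without the batch term. *Gch1*, the rate-limiting enzyme of cofactor synthesis, stood at 11.6, 12.4 and 12.7 CPM in WT-Sham and at 29.2, 34.9 and 38.0 in WT-tFCI (log2 fold change 1.47 ± 0.21, edgeR adjusted p = 8.79e-05), and was not called between the tFCI groups (-0.25, edgeR adjusted p = 0.473). In miKO-Sham vs. WT-Sham, 0 of the 12 were called by edgeR. Summed dendritic cell and monocyte markers were also highest in replicate 1 of both tFCI groups, as *Arg1* and *Slc7a2* were, and their part in these differences was not tested.

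**Figure D4:**
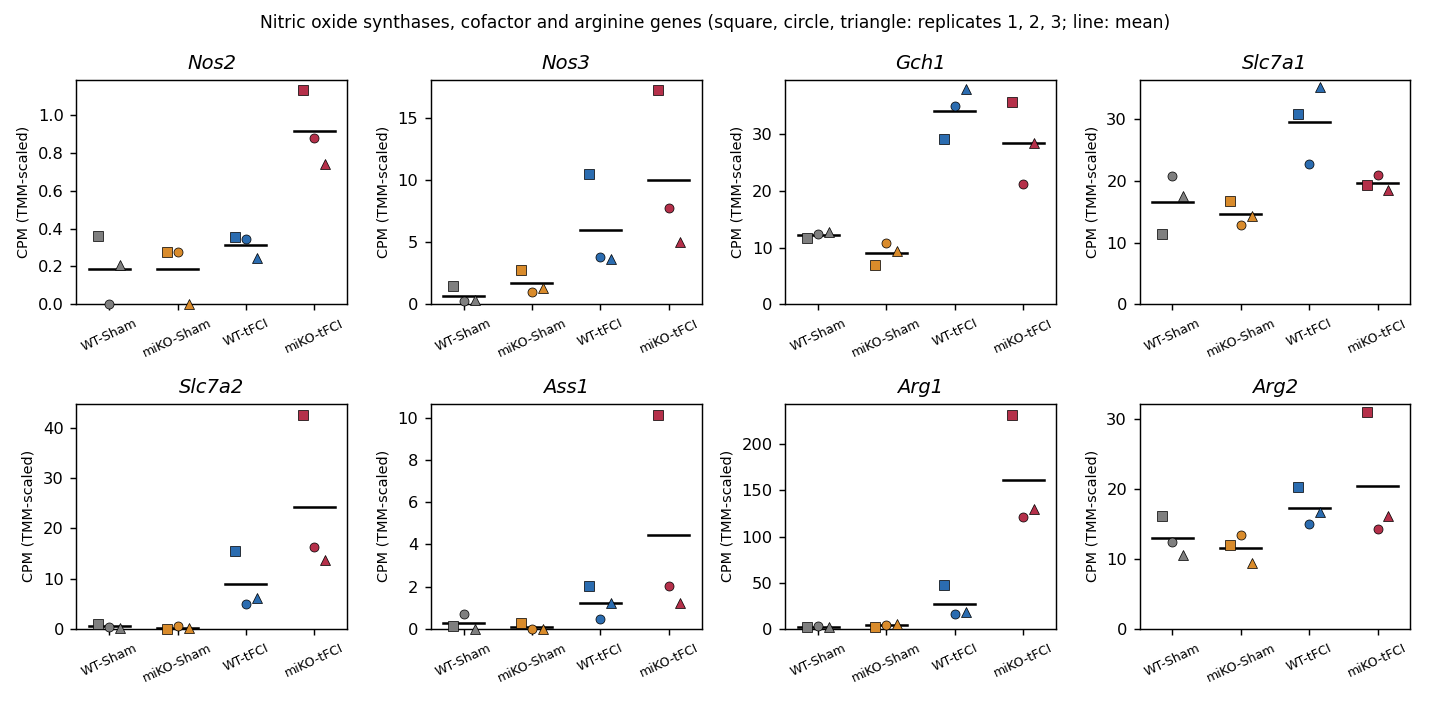
CPM in each library of *Nos2*, *Nos3*, the cofactor gene *Gch1*, the arginine transporters *Slc7a1* and *Slc7a2*, the arginine-making *Ass1* and the arginases *Arg1* and *Arg2* (squares, circles and triangles for replicates 1, 2 and 3, line for the mean, separate axes from 0). *Arg1* reaches 121 to 232 CPM in miKO-tFCI, where *Nos2* is at 0.740 to 1.13 CPM.

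The 10 genes that regulate oxidase activation, among them kinases and exchange factors for Rac, were all tested. In miKO-Sham vs. WT-Sham, 1 was called higher and 2 lower (median 0.25), against 8.58% higher and 6.80% lower over all genes. *Hvcn1*, the proton channel that offsets the charge carried by the oxidase, rose from 164, 209 and 232 CPM to 368, 349 and 374 (0.88 ± 0.19, edgeR adjusted p = 0.0040). *Prkcb*, a kinase that phosphorylates p47phox, fell from 84.3, 109 and 111 CPM to 37.8, 46.4 and 34.1 (-1.35 ± 0.17, edgeR adjusted p = 5.30e-05). *Arhgdib*, which holds Rac in the cytosol, fell from 471, 393 and 399 CPM to 222, 219 and 256 (-0.86 ± 0.13, edgeR adjusted p = 0.000294). In the 3 genes, the groups did not overlap.

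After tFCI, *Prkcb* was the 1 gene of these 10 called in miKO vs. WT, from 124, 131 and 122 CPM in WT-tFCI to 38.7, 57.5 and 71.9 in miKO-tFCI (-1.20 ± 0.17, edgeR adjusted p = 0.000461). It was thus lower in miKO in both Sham and tFCI, whereas *Cybb* was higher in both. In WT-tFCI vs. WT-Sham, 2 were called higher and 2 lower (median -0.32), and in miKO-tFCI vs. miKO-Sham 2 higher and 5 lower (median -0.61). Over all genes, 20.9% were called higher and 11.7% lower in the former, and 21.9% higher and 13.9% lower in the latter. The 2 higher in WT were *Vav3* (3.09, edgeR adjusted p = 0.0107), lost without WT-Sham replicate 1 (2.51), and *Arhgdib* (0.61, edgeR adjusted p = 0.00188), which fell to or below the fold limit without WT-Sham replicate 2 (0.53) or replicate 3 (0.54), WT-tFCI replicate 2 (0.50) or miKO-tFCI replicate 3 (0.58). *Syk*, 1 of the 2 lower (-0.58, edgeR adjusted p = 0.00329), did so without WT-Sham replicate 1 (-0.55). Its call was lost in 7 alternatives in all, among them DESeq2 (-0.58), only the groups compared (-0.57) and batch 2 alone (-0.55). In miKO the *Vav3* call (2.13, edgeR adjusted p = 0.0402) was lost, leaving 1 higher, without miKO-Sham replicate 1 (1.27) or replicate 2 (1.75), WT-tFCI replicate 2 or replicate 3 (2.13 each), or miKO-tFCI replicate 1 (1.30) or replicate 3 (2.38). The 5 included *Pik3cg* (-1.32 ± 0.18, edgeR adjusted p = 5.02e-05) and *Hvcn1* (-1.01 ± 0.19, edgeR adjusted p = 0.000639). *Hvcn1* shares 1574 of its 3563 exon bases with *Tctn1* on the other strand, and *Arhgdib* 136 of 1707 with *Pde6h*.

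Of 9 genes for the other NADPH oxidases and their helpers, 3 were tested, *Nox1*, *Noxo1* and *Duoxa1*, and *Duox2* had no count in any library. *Duoxa1*, which encodes the maturation factor of the dual oxidase DUOX1, had 37, 91 and 80 counts in WT-Sham and 30, 13 and 20 in WT-tFCI. It had 1, 0 and 0 counts in miKO-Sham and 4, 0 and 0 in miKO-tFCI, so that it was all but absent from both miKO groups. It was called lower in miKO-Sham vs. WT-Sham (edgeR adjusted p = 0.000106, count ratio 0.00584 with an exact 95% binomial interval of 0.000147 to 0.0329) and in miKO-tFCI vs. WT-tFCI (edgeR adjusted p = 0.00823, count ratio 0.0622 with an interval of 0.0164 to 0.167). *Duox1* itself had too few counts to be tested. Of the 3 genes tested, 2 were called lower and 0 higher in WT-tFCI vs. WT-Sham (median -1.21), and *Duoxa1* was the 1 called in each comparison of miKO with WT (medians -0.40 in Sham and -0.24 after tFCI). *Duoxa1* was 1 of the 2 lower in WT (-1.69, edgeR adjusted p = 0.0316), a call lost without WT-Sham replicate 2 (-1.43) or replicate 3 (-1.65), without any 1 WT-tFCI library (-1.47 to -1.94) and without the batch term (-1.60), leaving 1. *Noxo1*, of which 2122 of 3013 exon bases lie opposite *Tbl3*, was called lower in WT-tFCI vs. WT-Sham (-1.21 ± 0.31, edgeR adjusted p = 0.00679).

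Among 9 genes that remove superoxide and peroxide, 7 were called higher and 0 lower in WT-tFCI vs. WT-Sham (median 0.98), 3 higher and 0 lower in miKO-Sham vs. WT-Sham (median 0.42), and 4 higher and 0 lower in miKO-tFCI vs. WT-tFCI (median 0.38). *Prdx1*, a peroxiredoxin that reduces hydrogen peroxide, stood at 179, 158 and 158 CPM in WT-Sham, 654, 637 and 374 in miKO-Sham, 639, 561 and 494 in WT-tFCI, and 1640, 1695 and 1919 in miKO-tFCI. Its groups followed the order seen for *Cybb*, with miKO-Sham and WT-tFCI overlapping. *Prdx1* rose 3.35-fold with the deletion in Sham (1.74 ± 0.19, edgeR adjusted p = 1.23e-05) and 3.13-fold after tFCI (1.65 ± 0.18, edgeR adjusted p = 7.62e-05). The other 3 genes called in miKO-tFCI vs. WT-tFCI were *Sod3* (1.67 ± 0.32), *Gpx3* (1.66 ± 0.40) and *Cat* (0.72 ± 0.17), the extracellular superoxide dismutase, a secreted glutathione peroxidase and catalase. Their edgeR adjusted p was 0.0050, 0.0168 and 0.0141, and each call was lost without some single library. Those of *Sod3* and *Gpx3* were lost without miKO-tFCI replicate 1 (1.29 and 1.04), and that of *Gpx3* without any 1 WT-tFCI library (1.64 to 1.69). That of *Cat* was lost without WT-tFCI replicate 2 (0.65) or replicate 3 (0.63). *Sod3* stood at 19.0, 4.61 and 2.80 CPM in WT-tFCI and at 63.8, 11.5 and 11.5 in miKO-tFCI. *Gpx3* stood at 122.5, 75.1 and 72.9 CPM in WT-tFCI and at 547, 171 and 193 in miKO-tFCI. Replicate 1 was thus highest in both groups, as it was for the summed endothelial and dendritic cell markers, whose part was not tested.

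The last list held 12 cytokines, receptors and transcription factors known to induce these genes. In miKO-Sham vs. WT-Sham, 2 were called higher and 0 lower (median 0.17). *Il1b* rose from 50.6, 38.0 and 33.0 CPM to 347, 357 and 274 (3.03 ± 0.26, edgeR adjusted p = 1.44e-06). *Tnf* rose from 66.4, 92.7 and 70.1 CPM to 388, 392 and 252 (2.21 ± 0.24, edgeR adjusted p = 1.56e-05). After tFCI in WT, 4 were called higher and 2 lower (median -0.19), again with *Il1b* (3.61 ± 0.26, edgeR adjusted p = 1.28e-07) and *Tnf* (2.90 ± 0.25, edgeR adjusted p = 6.08e-07) leading. Between the tFCI groups, 0 were called higher and 2 lower (median -0.28), namely *Tnf* (-0.97 ± 0.23, edgeR adjusted p = 0.0163) and *Nfkb1* (-0.72 ± 0.14, edgeR adjusted p = 0.00518). The *Tnf* call was lost without WT-tFCI replicate 2 or replicate 3 (-0.91 each) and without miKO-tFCI replicate 1 (-0.81). *Spi1*, which encodes PU.1, a known activator of the *Cybb* and *Ncf1* genes, was not called in that comparison (-0.39 ± 0.13, edgeR adjusted p = 0.0625). After tFCI in miKO, 1 of the 12 was called higher and 6 lower (median -0.50), and *Spi1* was among the 6 (-0.70 ± 0.13, edgeR adjusted p = 0.000504), with *Ifngr1*, a chain of the interferon gamma receptor (-1.10 ± 0.17, edgeR adjusted p = 0.000163). In the interaction, *Il1b* (-3.68 ± 0.35, edgeR adjusted p = 6.00e-05) and *Tnf* (-3.18 ± 0.33, edgeR adjusted p = 0.00014) were called lower, 2 of 12 (median -0.47), as *Cybb*, *Ncf1* and *Rac2* were.

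Whether tFCI changed the genes differently in the genotypes was asked with the interaction. *Cybb* rose by 1.90 with tFCI in WT and by 0.61 in miKO, a difference of -1.28 ± 0.24 (edgeR adjusted p = 0.00752) that was called under every alternative but the stricter test against the fold limit (edgeR adjusted p = 0.0749). *Ncf1* changed by 0.17 in WT and -0.77 in miKO, a difference of -0.94 ± 0.22 (edgeR adjusted p = 0.0272). *Rac2* changed by 1.03 in WT and 0.32 in miKO, a difference of -0.70 ± 0.18 (edgeR adjusted p = 0.0391). For *Cyba* (-0.73 ± 0.26, edgeR adjusted p = 0.151) and *Ncf4* (-0.40 ± 0.18, edgeR adjusted p = 0.262) no difference was called. Within batches 1 and 2 the difference was -1.13 and -1.41 for *Cybb*, -1.36 and -0.75 for *Ncf1*, and -0.69 and -0.71 for *Rac2*. The *Rac2* call was lost on leaving out any 1 library other than WT-Sham replicate 1 and miKO-Sham replicate 3 (-0.63 to -0.75). That of *Ncf1* was lost without replicates 2 or 3 of WT-Sham (-0.91 and -0.93) or of WT-tFCI (-0.94 and -0.90) and without miKO-Sham replicate 1 (-0.79), and *Cyba* was called without WT-Sham replicate 1 (-1.03, edgeR adjusted p = 0.0158).

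The genes nearest to each in profile were found from the root-mean-square difference of centred log2 CPM over the 12 libraries, among 16450 genes. *Cybb* was nearest to *Cdkn2d* (0.246), *Zfand4* (0.248) and *Rab3d* (0.260), against its own SD of 0.967. *Cyba* was nearest to *Bax* (0.178), *Commd9* (0.182) and *Npc2* (0.185). *Ncf1* lay closest of all to another gene, *Cln8* (0.064), then to *Man2b1* (0.124) and *Nagpa* (0.125). For *Ncf4* they were *Rpl7l1* (0.099), *Slc35b2* (0.108) and *Tada3* (0.108), and for *Rac2* they were *Aaas* (0.11), *Uap1l1* (0.121) and *Arpc1b* (0.123). No gene of the set was among the 3 nearest to another. These distances describe 12 libraries that share 4 groups and carry no test.

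The sorted cells were checked against markers of microglia and of other cells. The summed level of 10 microglial markers was 28290 to 34100 CPM in WT-Sham, 22150 to 27000 in miKO-Sham, 20700 to 21640 in WT-tFCI and 10290 to 17020 in miKO-tFCI. Of these, 6 were called lower in both WT-tFCI vs. WT-Sham and miKO-tFCI vs. WT-tFCI (over all genes 11.7% and 4.71% lower). In miKO-Sham vs. WT-Sham, 5 were lower and 1 higher (6.80% and 8.58%), and in miKO-tFCI vs. miKO-Sham 10 were lower (13.9%). *Cx3cr1*, 1 of the 10, holds CreER in 1 allele in miKO, so that its intact copies differ between miKO and WT as well. Neutrophils and monocytes also express the phagocyte oxidase. *Csf3r* made up most of the sum of 12 neutrophil markers in WT-Sham replicates 2 and 3 and in every miKO-Sham and WT-tFCI library. Summed over the other 11 neutrophil markers, the level was 51.3 to 861 CPM in WT-Sham, 347 to 384 in miKO-Sham, 161 to 217 in WT-tFCI and 724 to 1000 in miKO-tFCI. *Ly6g*, 1 of these markers, stayed at or below 0.740 CPM and had too few counts to be tested, so that it cannot stand for the list. The 11 neutrophil markers tested with edgeR, counted below, leave out *Ly6g* and include *Csf3r*. For 10 monocyte and macrophage markers the level was 42.1 to 110 CPM, 71.5 to 209, 434 to 704 and 620.0 to 1079 in the same order.

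These markers moved with some of the differences above. In miKO-tFCI vs. WT-tFCI, 7 of 11 neutrophil markers tested and 4 of 10 monocyte markers were called higher, and their part in the *Cybb* and *Nos2* differences was not tested. In miKO-Sham vs. WT-Sham, by edgeR, 0 of 11 neutrophil markers and 1 of 10 monocyte markers were called. There, the neutrophil sum without *Csf3r* was 861 CPM in WT-Sham replicate 1, above every miKO-Sham library (347 to 384 CPM). In WT-Sham replicates 2 and 3 it was 78.8 and 51.3 CPM, below every miKO-Sham library. This wide spread in WT-Sham limits what the lack of calls shows. *Cybb* stood at 22.9, 15.0 and 16.6 CPM in WT-Sham replicates 1, 2 and 3, against at least 67.7 CPM in miKO-Sham. The high neutrophil value is that of 1 library, and the part of neutrophil RNA in the Sham difference of *Cybb* was not tested. The summed level of 6 markers of border macrophages was 533 to 687 CPM in WT-Sham and 1254 to 1615 in miKO-Sham, with 1 of 6 called higher. That gene, *Stab1*, a scavenger receptor, made up most of both sums (444 to 582 CPM and 1066 to 1573). The other 5 summed to 75.2 to 105 CPM in WT-Sham and 42.0 to 188 in miKO-Sham, so that the groups overlapped without it. The part of these markers in the Sham differences of *Cybb*, *Cyba* and *Rac2* was not tested. In WT-tFCI vs. WT-Sham, 5 of 10 monocyte markers were called higher and 1 of the 11 neutrophil markers tested lower. *Csf3r*, left out of the sums above, stood at 543, 564 and 585 CPM in WT-Sham and at 341, 338 and 374 in WT-tFCI. The part of monocyte RNA in the rise of *Cybb* and *Rac2* was not tested. After tFCI in miKO, 7 of 10 monocyte markers, 4 of 11 neutrophil markers and 4 of 6 border-macrophage markers were called higher and 1 neutrophil marker lower, and their part in the rise of *Cybb* there was not tested. Of 6 astrocyte markers, 4 were called higher and 1 lower in WT-tFCI vs. WT-Sham. In miKO-tFCI vs. WT-tFCI 3 were called higher and 1 lower, and in miKO-tFCI vs. miKO-Sham 5 higher and 1 lower. In miKO-Sham vs. WT-Sham, 2 were called higher and 1 lower. The part of astrocyte RNA in any difference above was not tested. Marker lists of oligodendrocytes, neurons and lymphocytes are not described here.

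**Figure D5:**
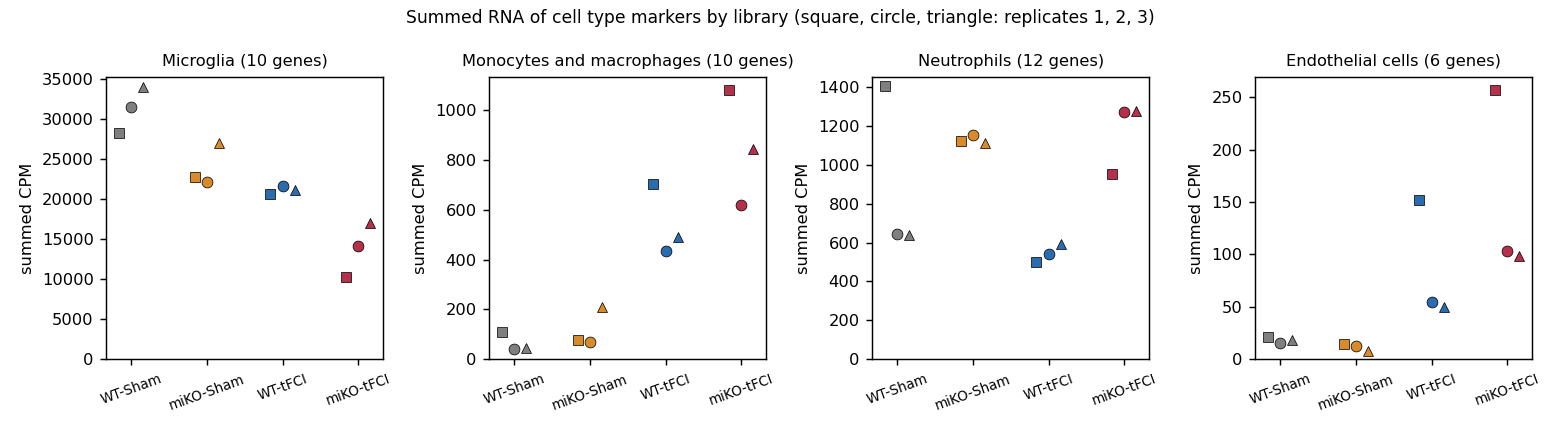
Summed CPM of 4 marker lists in each library, by group (squares, circles and triangles for replicates 1, 2 and 3, axes from 0). The neutrophil panel sums all 12 markers, *Csf3r* included, whereas the sums in the text leave *Csf3r* out. In this panel miKO-Sham (1112 to 1153 CPM) lies within the range of miKO-tFCI (954 to 1276 CPM). Microglial markers are lowest in miKO-tFCI (10290 to 17020 CPM), where the monocyte and macrophage sum is at its highest (620.0 to 1079 CPM), and WT-Sham replicate 1 stands apart from its group in the neutrophil panel.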

How the data were processed

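The authors sequenced RNA of sorted microglia (SMART-Seq v4 libraries, paired-end) and deposited raw counts per gene in 1 table per library. Per the labels' processing notes, FastQC 0.11.9, Trim Galore, HISAT2 2.2.1, SAMtools, HTSeq 1.99.2 and the builds mm10 and GRCm38.p6 were used. Rows that name no gene stayed out of library sizes: of all reads in the tables, 30.7% to 38.5% fell on genes and 45.3% to 52.5% on no feature. Gene positions and exon lengths came from GENCODE M21, in which 55141 identifiers matched.

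Counts were tested with edgeR 4.0.16 (quasi-likelihood, TMM, filterByExpr, group and batch terms, 12 libraries) in R 4.3.3, with Benjamini-Hochberg adjustment over all genes tested, after the procedure was tested on simulated data. The adjusted p and fold limits follow the study's methods, and DESeq2 1.42.0 was 1 alternative. Log2 CPM used a prior count of 2. Counting intervals cover counting error only. Named genes were the 6 genes, *Hdac3*, at most 5 called genes per list and comparison, and the 3 nearest genes in profile. A gene of the partner list is not reported here. The members and lists were chosen with earlier results of these data known. Same-numbered WT-tFCI and miKO-tFCI libraries deviated together from their group means (r = 0.666, 0.334 and 0.324). The reported fit had a batch term and did not pair these libraries by number. Differently numbered libraries of batch 2 in these groups were as close (r = 0.327 and 0.395), so that within batch 2 the numbers marked no closer pairs there. In the other group pairs, r of same-numbered libraries ran from -0.0607 to 0.282, with a value at or below 0.1 in each pair. Replicate 3 of both groups gave 0.236 (WT-Sham and miKO-Sham), 0.282 (WT-Sham and miKO-tFCI) and 0.211 (miKO-Sham and miKO-tFCI). Replicate 3 of the first group with replicate 2 of the second gave -0.157, -0.0105 and 0.0482.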

Additional observations from a re-analysis of the deposited data

Results flagged for a closer look

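The change with tFCI differed between WT and miKO for 3 of the 5 genes tested, by the interaction of genotype and surgery in edgeR. The difference (change in miKO less change in WT) was -1.28 on the log2 scale for *Cybb* (edgeR adjusted p = 0.00752), -0.94 for *Ncf1* (edgeR adjusted p = 0.0272) and -0.70 for *Rac2* (edgeR adjusted p = 0.0391). The 3 values rest on the same 12 libraries and share all 4 groups. All 3 were lower, against 3.82% of all genes called (2.57% lower). On leaving out a library the count was 1 to 4. The *Rac2* call was lost without any 1 library other than WT-Sham replicate 1 and miKO-Sham replicate 3 (-0.63 to -0.75), and the *Ncf1* call without WT-Sham or WT-tFCI replicate 2 or replicate 3 or miKO-Sham replicate 1 (-0.79 to -0.94).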

How the results depend on the processing

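The log2 fold changes of the 5 genes tested kept their sign under every alternative, and no result reversed. In miKO-tFCI vs. WT-tFCI, the 1 gene of the set called higher became 0 without the batch term and with glmTreat, a test against the fold limit, and 0 to 1 on leaving out a library. In miKO-tFCI vs. miKO-Sham, the 1 called higher became 0 with upper-quartile factors, no filter, glmTreat or miKO-Sham replicates 1 and 2 summed in batch 2 (0 to 1 on leaving out a library). There the 1 called lower became 2 with upper-quartile factors, no filter, no fold limit or those replicates summed in either batch, 0 with glmTreat, and 1 to 2 on leaving out a library. With batch 2 alone it was *Ncf4* (-0.67) in place of *Ncf1* (-0.54). In the interaction, the 3 called lower became 1 without the batch term or with those replicates summed in batch 2, 0 with glmTreat, and 1 to 4 on leaving out a library (4 without WT-Sham replicate 1). The summed replicates were chosen after seeing the data.

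Over all genes, glmTreat called 2276 higher and 607 lower in WT-tFCI vs. WT-Sham (reported fit: 3440 and 1925), 130 and 179 in miKO-tFCI vs. WT-tFCI (671 and 775), 547 and 467 in miKO-Sham vs. WT-Sham (1411 and 1119), 991 lower in miKO-tFCI vs. miKO-Sham (2284), and 62 and 136 in the interaction (206 and 423). The filter on 10 or more counts per library left 1962 called higher for tFCI in WT and 2003 higher in miKO-tFCI vs. miKO-Sham (3603), fewer genes being tested. In miKO-tFCI vs. WT-tFCI, 1200 were called higher with no filter, 1542 with only the groups compared, and 213 higher and 488 lower without the batch term. On leaving out a library, 212 to 851 were called higher and 404 to 842 lower there. In the interaction, 347 were called higher with DESeq2, 137 with batch 2 alone and 121 with the replicates summed in batch 2, 458 higher and 814 lower with no filter, and 85 and 218 without the batch term, with 95 to 299 higher and 185 to 584 lower on leaving out a library. The cause of these shifts was otherwise not tested.

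With a replicate block in place of batch, 635 genes were called higher and 794 lower in miKO-tFCI vs. WT-tFCI, 1382 and 1108 in miKO-Sham vs. WT-Sham, 3429 and 1896 for tFCI in WT, 3599 and 2272 for tFCI in miKO, and 198 and 414 in the interaction. The block changed no call of the 5 genes. Unscaled library totals moved 9 of 24 group means of CPM by more than 1 SD. Depth limits *Nos2*, with at most 11 counts in a library.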
